A study of Homo sapiens with 14 samples.

Results

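Hep3B cells grown on transwell inserts were compared with and without a weight laid on them, across 13987 genes of the 56479 in the deposited count table. Levels are in CPM, counts scaled to a common library size. A gene was included where at least 2 of the 4 libraries held at least 1 CPM, and every included gene was tested. Hep3B is an established hepatocellular carcinoma line, and a weight on an insert presses mechanically on the cells. The series holds 14 libraries of total RNA in 7 groups of 2: HepG2 on dishes in isotonic medium or in 4% polyethylene glycol (PEG) for 5 days, HepG2 on transwells without and with a weight, and Hep3B on transwells without compression, with a weight, or in 3% PEG. The labels give these lines as unmodified. The labels used here state neither the size of the weight nor its duration. The Hep3B control columns were read as the uncompressed group. The labels speak of biological replicates for the dish cultures only, so p-values measure the spread between these libraries, which may be technical.

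When oxygen is short, the hydroxylases that mark HIF-alpha subunits for degradation slow down, and HIF dimers bind a short core sequence, ACGTG, near genes for glucose breakdown, angiogenesis and acid handling. Hep3B cells have long served as a model of this pathway because they make erythropoietin in an oxygen-dependent way. Cholesterol and fatty acid synthesis are driven in liver cells by SREBP factors, and chaperones of the endoplasmic reticulum (ER) fold the proteins that such cells secrete.

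The 4 libraries held 22079840 to 25823821 counts. ALB (albumin) stood between 30142 and 30908 CPM in all 4, and HNF4A, a factor that defines hepatocytes, between 354 and 390 CPM. GPC3, from the same list of 7 hepatoma line genes, had 1783 and 1780 CPM without and 1328 and 1374 CPM with the weight. Of these 7 genes 1 rose and 2 fell (10.3% and 7.59% over all genes tested). RB1, a gene whose function is lost in Hep3B, had 3.03 and 2.88 CPM without and 4.61 and 5.46 CPM with the weight. The RB1 difference passed the test (log2 fold change 0.77, adjusted p = 0.012) and lost its call without any library but weight replicate 1 (adjusted p from 0.076 to 0.10). Markers of other cells were low: the 8 fibroblast and stellate cell genes summed to 15.1 and 18.0 CPM without and to 28.5 and 26.8 CPM with the weight, with ACTA2 at 0 in all 4. Of their 3 tested members 2 rose and none fell. PDGFRB had 6.00 and 6.16 against 12.7 and 13.6 CPM, and LUM 7.22 and 9.68 against 13.5 and 11.2 CPM. The 7 endothelial genes summed to 1.03 and 0.891 CPM without and to 2.11 and 1.81 CPM with the weight, with CDH5 and KDR at 0. Their 1 tested member, PECAM1, an adhesion molecule, had 0.698 and 0.731 against 1.85 and 1.79 CPM (log2 fold change 1.34, adjusted p = 0.0069), a call lost without either uncompressed library (adjusted p = 0.058 and 0.050). The 7 blood cell genes summed to 19.4 and 19.3 against 18.7 and 15.5 CPM, with CD3E at 0. Of their 2 tested members none rose and 1 fell, and CD14 had 2.92 and 2.52 against 1.43 and 1.22 CPM. The sums and the values of GPC3, PDGFRB, LUM and CD14 were scaled by total counts alone. The part of these markers in the results was not tested. In bulk RNA, fewer cells making a transcript and less transcript per cell cannot be told apart.

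The weight raised 1446 genes and lowered 1061, which is 10.3% and 7.59% of those tested and 17.9% together, at a Benjamini-Hochberg adjusted p under 0.05 in edgeR's quasi-likelihood test. Rises were larger than falls. Among genes past the threshold, 290 rose and 40 fell by at least 1 on the log2 scale, and the median log2 fold change was 0.46 for risen and -0.30 for fallen genes. In each of these genes both weight libraries lay on the same side of both uncompressed libraries, as they also did in 29.9% of all tested genes above and in 30.1% below. The count rests on the small spread of these 4 libraries. It was 1181 without uncompressed replicate 1, 1277 without uncompressed replicate 2 and 1653 without weight replicate 2, and 223 (186 up, 37 down) where all 14 libraries set the spread. Without a scaling factor the split was 1240 up and 1770 down, with a median of all genes of -0.04 against 0.00 (log2) in the scaled data.

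**Figure D1:**
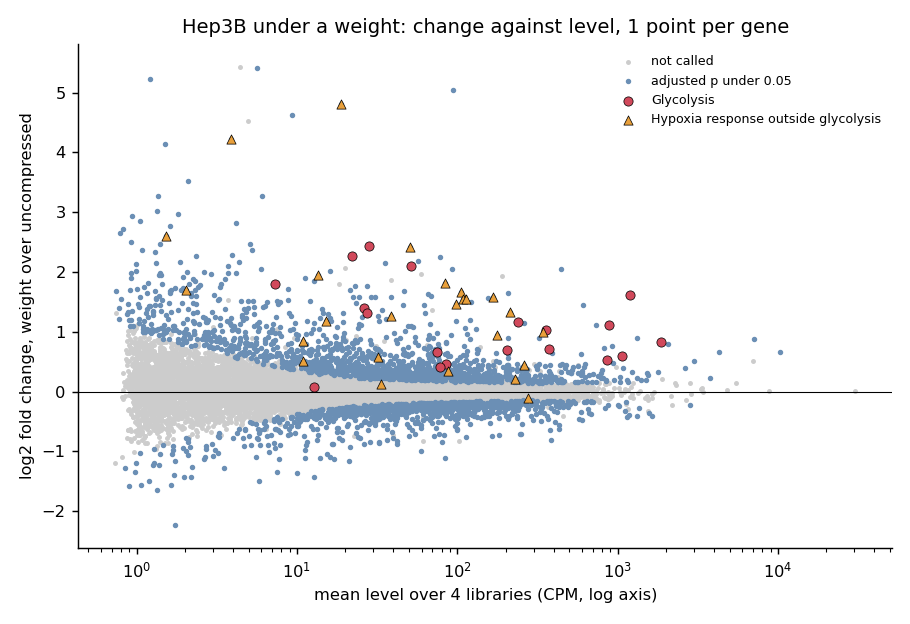
Log2 fold change of weight over uncompressed Hep3B (vertical) against the mean level of the 4 libraries (CPM, log axis), 1 point per tested gene. Coloured points mark the 1446 risen and 1061 fallen genes, and the circles and triangles mark the glycolysis and hypoxia lists, most of which lie in the upper part at every level.

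The oxygen-responsive genes had the largest median change among the lists with more than 1 tested gene. Lists and members were chosen with earlier results of these data known, so this ranking partly reflects that choice. Of 25 known hypoxia targets and regulators outside glycolysis, 22 rose, none fell and 3 were not called. Their median log2 fold change was 1.33 against 0.00 over all genes tested, of which 10.3% rose and 7.59% fell. EPO, which encodes erythropoietin, had 0.388 and 0.385 CPM without and 5.94 and 8.76 CPM with the weight (log2 fold change 4.23 ± 0.30 SE, adjusted p = 6.41e-07). CA9, a carbonic anhydrase that handles acid at the cell surface, had 1.40 and 1.19 against 28.0 and 44.99 CPM (4.81 ± 0.45, adjusted p = 0.016). Both were near silent without the weight, and the groups were far apart, with the second weight library the higher. EPO passed the filter through its weight libraries alone, so only a rise of it could be called.

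Abundant targets rose as well. BHLHE40, a transcriptional repressor, went from 49.4 and 50.8 to 147 and 172 CPM (1.67 ± 0.07, adjusted p = 3.37e-08). ERO1A, an ER oxidase that drives disulphide formation, went from 229 and 228 to 438 and 468 CPM (0.99 ± 0.05, adjusted p = 3.37e-08). The ERO1A call was lost under 1 of 16 alternative settings. MXI1, an antagonist of MYC, went from 9.62 and 8.89 to 20.5 and 21.5 CPM (1.18 ± 0.10, adjusted p = 2.01e-06). In these 3 genes the replicates of a group differed far less than the groups.

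The other members of the hypoxia list are named here with their values in view. VEGFA, the main angiogenic growth factor, had 84.4 and 82.9 against 219 and 284 CPM, a log2 fold change of 1.59 ± 0.14. ADM, the vasodilator peptide adrenomedullin, rose by 1.96 and ANKRD37 by 2.61. BNIP3 and BNIP3L, which direct mitochondria to autophagy, rose by 1.46 and 1.82, and DDIT4, an inhibitor of mTORC1, by 2.41. Smaller rises were those of the oxygen sensors EGLN1 (0.45) and EGLN3 (0.51) and of INSIG2 (0.35). The HIF subunit gene EPAS1 rose by 0.21. HIF1A, at 279 and 294 against 279 and 255 CPM, was not called (-0.10 ± 0.06, adjusted p = 0.22). With a library left out, the HIF1A log2 fold change ran from -0.171 to -0.039. CA12 was not called either (0.13, adjusted p = 0.47).

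P4HA1, a collagen prolyl hydroxylase, had 58.7 and 56.8 CPM without and 134 and 205 CPM with the weight, a log2 fold change of 1.56 that missed the threshold (adjusted p = 0.10). Its weight libraries lay above both uncompressed ones and far from each other. With a library left out, its log2 fold change ran from 1.22 to 1.83. A fit without either weight library cannot see their disagreement, so it does not decide the call. The list's 22 risen members became 14 without uncompressed replicate 1, and 16 without uncompressed replicate 2, and were 21 without either weight library. They were 15 with the spread of all 14 libraries and 11 when tested against a log2 fold change of 0.5. CA9, DDIT4, BNIP3, VEGFA and LOX lost their call without either uncompressed library, with adjusted p of 0.16 and 0.16, 0.17 and 0.18, 0.18 and 0.18, 0.054 and 0.056, and 0.097 and 0.099. NDRG1 and EPAS1 lost theirs without uncompressed replicate 1 (0.053 and 0.18), and EGLN3 without uncompressed replicate 2 or weight replicate 2 (0.072 each).

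Transcripts of nearly all tested genes for glucose breakdown rose. Of 19 tested genes for glucose uptake and glycolysis, 18 rose and none fell (10.3% and 7.59% over all genes tested), a median of 1.03. This list too was chosen with earlier results known. The 19th, PFKM, the muscle-type phosphofructokinase, was not called, and 3 more list genes were too low to test. All 18 stayed called without any 1 of the 4 libraries, but 9 were called with the spread of all 14 libraries, and 13 against a log2 fold change of 0.5. SLC2A1, the glucose transporter GLUT1, had 13.9 and 14.8 CPM without and 35.4 and 40.4 CPM with the weight (1.40 ± 0.09, adjusted p = 1.48e-07). PFKFB4, which sets the level of an activator of phosphofructokinase, had 9.23 and 8.35 against 42.6 and 52.8 CPM (2.44 ± 0.11, adjusted p = 1.48e-07). Neither gene's groups came close to overlapping.

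In the middle and lower steps, ALDOA (aldolase A) went from 552 and 564 to 1122 and 1302 CPM (1.12 ± 0.07), and GAPDH from 1326 and 1354 to 2287 and 2470 CPM (0.83 ± 0.05, adjusted p = 2.43e-07). Both lost their call with the spread of all 14 libraries (adjusted p = 0.069 and 0.099). ALDOC, the brain-type aldolase, rose by 2.28 and ENO2 by 1.79. At the branch between lactate and mitochondria, LDHA (lactate dehydrogenase A) had 591 and 587 against 1575 and 2040 CPM (1.62 ± 0.14, adjusted p = 0.0040), and PDK1, a kinase that holds pyruvate out of the citric acid cycle, rose by 2.09. The lactate exporter SLC16A3 rose by 1.31 and hexokinase HK2 by 1.16. All 19 tested members were higher in weight replicate 2 than in weight replicate 1, and so were 21 of the 25 hypoxia genes. AK4, an adenylate kinase of mitochondria, and GBE1, the glycogen branching enzyme, were among the genes with the smallest p and rose by 1.19 and 1.08.

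**Figure D2:**
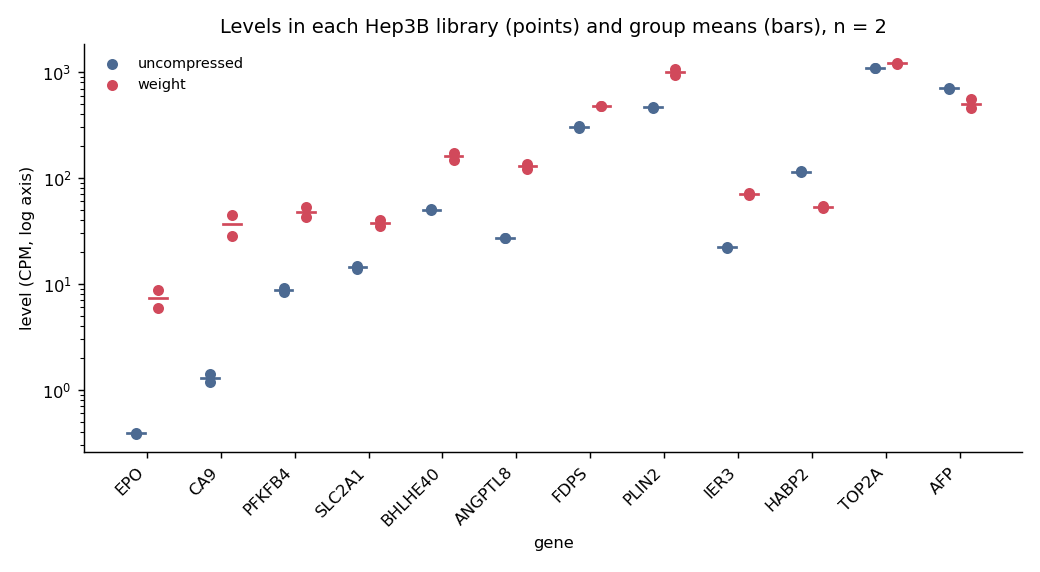
Level (CPM, log axis) of 12 genes in the 2 uncompressed and 2 weight libraries of Hep3B, with a bar at each group's mean. EPO runs from 0.388 and 0.385 to 5.94 and 8.76 CPM, while TOP2A stays between 1084 and 1232 CPM in all 4.

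The promoters of 4 genes with large rises are shown because they carry the core ACGTG, which reads CACGT on the other strand. Each run is the 250 bases before the start in RefSeq (GRCh38.p14), on the gene's strand, with the core in capitals: CA9 at chr9:35673678-35673927 (+), LDHA at chr11:18394313-18394562 (+), ALDOC at chr17:28576896-28577145 (-) and BHLHE40 at chr3:4979187-4979436 (+).
CA9: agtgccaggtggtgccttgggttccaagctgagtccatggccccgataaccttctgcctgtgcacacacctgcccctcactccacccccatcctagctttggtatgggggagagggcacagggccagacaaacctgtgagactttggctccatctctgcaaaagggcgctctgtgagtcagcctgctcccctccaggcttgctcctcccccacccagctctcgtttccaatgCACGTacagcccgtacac
LDHA: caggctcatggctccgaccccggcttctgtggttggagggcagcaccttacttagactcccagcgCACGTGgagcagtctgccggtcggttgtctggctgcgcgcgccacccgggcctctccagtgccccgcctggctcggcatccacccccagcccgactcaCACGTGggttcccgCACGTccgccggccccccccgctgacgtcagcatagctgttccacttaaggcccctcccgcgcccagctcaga
ALDOC: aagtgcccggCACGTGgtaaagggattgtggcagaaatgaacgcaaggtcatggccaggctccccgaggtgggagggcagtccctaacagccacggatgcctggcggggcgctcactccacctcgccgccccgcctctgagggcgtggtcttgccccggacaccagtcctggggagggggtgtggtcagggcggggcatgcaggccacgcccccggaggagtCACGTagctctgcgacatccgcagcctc
BHLHE40: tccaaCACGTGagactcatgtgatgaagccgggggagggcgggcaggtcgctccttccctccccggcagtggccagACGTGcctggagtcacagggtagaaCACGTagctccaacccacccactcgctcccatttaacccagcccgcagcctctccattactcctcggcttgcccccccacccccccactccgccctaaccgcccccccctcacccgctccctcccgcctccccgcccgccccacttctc
CA9 held 1 copy close to its start, and 2 of the 3 stretches in LDHA read CACGTG, in which the cores of both strands overlap. In windows from 250 bases before to 50 after the start, the core on either strand was in 21.4% of 35116 promoters, in 25.4% of those of tested genes, in 26.5% for risen and in 24.1% for fallen genes. The shares were 47.2% of 36 promoters for the glycolysis list, whose 19 tested genes all have entries in the table, and 53.6% of 28 for the hypoxia list, of whose 25 genes 21 have entries. Counted by gene, at least 1 promoter held the core in 13 of 19 (68.4%) and 12 of 21 (57.1%), against 32.4% of tested genes with an entry. Median GC content was 70.0% and 66.7% in these lists, against 64.7% for tested genes. The glycolysis list had 36 promoters for 19 genes, against 15050 for 10293 tested genes with an entry, so its genes had more chances of a match. Both lists were chosen with earlier results of these data known, and the hypoxia list holds known targets. Their shares are therefore no test of the weight. A match describes letters, not a bound site, and the part of HIF was not tested. For EPO and ANGPTL8 no match was found, which may mean a promoter without the core or no promoter entry.

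The largest rise among genes with a mean of at least 5 CPM was that of ANGPTL2, a secreted angiopoietin-like protein, from 0.388 and 0.115 to 8.398 and 13.5 CPM (5.41 ± 0.42, adjusted p = 5.08e-05). IGFBP1, which binds insulin-like growth factors, went from 0.698 and 0.731 to 13.5 and 22.3 CPM (4.63 ± 0.37, adjusted p = 0.00054). The groups lay apart in both. Each was below 1 CPM in both uncompressed libraries and passed the filter through its weight libraries alone. The same held for EPO, ANKRD37, FOS and PECAM1, so only a rise could be called in these genes. SYT12, C15orf48, RFLNA and TNS1 were also among the largest rises, by 3.28, 2.48, 2.37 and 2.19. RFLNA and TNS1 lost their calls without either uncompressed library (adjusted p = 0.11 and 0.13, and 0.23 and 0.21).

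The smallest p was that of ANGPTL8, a hepatocyte hormone that limits lipoprotein lipase. It had 27.2 and 27.3 CPM without and 122 and 136 CPM with the weight (2.24 ± 0.07, adjusted p = 1.56e-10). Its call was lost under 1 of 16 alternative settings, though not with a library left out. HAL, the first enzyme of histidine breakdown, had 35.8 and 35.8 against 136 and 162 CPM (2.06 ± 0.08, adjusted p = 3.37e-08). FABP1, the liver fatty acid binding protein, had 105 and 95.2 against 297 and 336 CPM (1.66 ± 0.07, adjusted p = 6.56e-08). SLC43A3 and PLXND1 rose by 0.90 and 0.95.

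The falls were smaller. ADH1A, an alcohol dehydrogenase, went from 9.00 and 8.12 to 2.63 and 3.44 CPM (-1.50 ± 0.18, adjusted p = 4.73e-05). The ADH1A call was lost under 1 of 16 alternative settings. HABP2, a plasma serine protease, went from 113 and 117 to 52.1 and 54.0 CPM (-1.12 ± 0.06, adjusted p = 3.41e-08), with close replicates. AKR1D1, a steroid reductase of bile acid synthesis, fell by 1.12, and FMO1, a flavin monooxygenase, by 1.09. The long noncoding RNA UCA1 fell by 1.11 and TBX2, a T-box repressor, by 1.11. Other large falls were those of CBLN2 (-1.43), CDH10 (-1.37), CTXND1 (-1.34), SEMA3D (-1.16), TENT5C (-1.13) and SCG5 (-1.10).

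Transcripts of lipid synthesis genes rose by smaller steps. Of 25 genes of cholesterol synthesis and uptake, 18 rose and 1 fell (10.3% and 7.59% over all genes tested), with a median of 0.27. FDPS, which makes farnesyl pyrophosphate, had 310 and 299 CPM without and 476 and 479 CPM with the weight (0.65 ± 0.05, adjusted p = 9.31e-07). The FDPS call was lost under 1 of 16 alternative settings. INSIG1, which retains SREBP in the ER, rose by 0.59 and STARD4, a sterol carrier, by 0.46. HMGCS1 and SQLE rose by 0.33 each. The fall was lost without uncompressed replicate 2. The 18 rises became 1 with the spread of all 14 libraries, and also 1 against a log2 fold change of 0.5.

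Of 22 tested genes of fatty acid synthesis and lipid droplets, 13 rose and 1 fell, with a median of 0.27. PLIN2, the coat protein of lipid droplets, had 470 and 459 against 932 and 1076 CPM (1.11 ± 0.06, adjusted p = 2.43e-07). SCD, the stearoyl-CoA desaturase, had 3282 and 3385 against 5101 and 5507 CPM (0.67 ± 0.06, adjusted p = 1.98e-06). PLIN4 and the elongase ELOVL6 rose by 0.79 and 0.67, and FASN, the fatty acid synthase, by 0.36. The 13 rises became 2 with the spread of all 14 libraries. The fall was lost there, in DESeq2, and without either uncompressed library or weight replicate 2. In contrast, 5 of 25 genes of fatty acid oxidation rose and 6 fell (10.3% and 7.59% over all genes tested). The list's median was -0.01, and CPT1A, the carnitine palmitoyltransferase, rose by 0.51. The 6 became 0, 1 and 1 without uncompressed replicate 1, uncompressed replicate 2 and weight replicate 2, and the 5 became 3 without either uncompressed library. No fall and 2 rises of this list were called with the spread of all 14 libraries.

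Stress chaperones of separate compartments moved in opposite directions. Of 24 genes of ER folding and secretion, 15 rose and none fell (10.3% and 7.59% over all genes tested), with a median of 0.21. SSR1, a subunit of the translocon-associated complex, had 432 and 444 CPM without and 551 and 548 CPM with the weight (0.33 ± 0.05, adjusted p = 0.00030). EDEM1, HERPUD1 and the sensor kinase ERN1 rose by 0.37, 0.37 and 0.43, and the chaperone HSPA5 by 0.25. The count was 6 without either uncompressed library, where HSPA5 lost its call too (adjusted p = 0.070 and 0.13). Of 19 heat shock chaperones of the cytosol and nucleus, none rose and 7 fell, with a median of -0.14. HSPH1 had 330 and 343 against 286 and 262 CPM (-0.29 ± 0.05, adjusted p = 0.0016), and DNAJA1 fell by 0.26. HSPB8, a low-level small chaperone, fell by 0.91, a call lost without uncompressed replicate 1 (adjusted p = 0.053). The 7 became 2, 3 and 4 without uncompressed replicate 1, uncompressed replicate 2 and weight replicate 2, and 11 without weight replicate 1. With the spread of all 14 libraries no ER rise and no heat shock fall was called.

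Of 28 genes of the ATF4 and amino acid stress list, 5 rose and 5 fell (10.3% and 7.59% over all genes tested), with a median of 0.03. TRIB3, a pseudokinase, rose by 0.83 and the cytokine GDF15 by 1.58, while PHGDH, the first enzyme of serine synthesis, fell by 0.50. Of 21 NRF2 and redox genes, none rose and 3 fell, a median of -0.10. These 3 were 0 without either uncompressed library or weight replicate 2, and 7 without weight replicate 1. The ATF4 rises were 2 and 3 without uncompressed replicates 1 and 2, and the falls 3, 3, 8 and 3 without uncompressed replicates 1 and 2 and weight replicates 1 and 2. With the spread of all 14 libraries 1 ATF4 rise and no other change of these 2 lists was called.

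Of 28 immediate early genes and feedback regulators of MAPK signalling, 16 rose and 2 fell, with a median of 0.40. Over all genes tested 10.3% rose and 7.59% fell. IER3 had 22.03 and 22.2 CPM without and 68.99 and 72.4 CPM with the weight (1.67 ± 0.07, adjusted p = 3.21e-09). EGR1, a zinc finger factor induced by ERK, had 11.3 and 11.1 against 32.3 and 34.6 CPM (1.58 ± 0.08, adjusted p = 3.98e-08). The EGR1 call was lost under 1 of 16 alternative settings. The AP-1 genes FOS and JUNB rose by 2.47 and 1.59. The feedback inhibitors SPRY1, SPRY4 and DUSP6 rose by 0.74, 1.17 and 0.61, and KLF10 by 0.63. The 16 rises became 5 with the spread of all 14 libraries. The 2 falls became 1 without uncompressed replicate 1, and 0 without uncompressed replicate 2 or weight replicate 2, in DESeq2 and with the 14 libraries.

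Mitosis genes changed little. Of 36 mitosis genes 2 rose and 1 fell (10.3% and 7.59% over all genes tested), with a median of 0.07. TOP2A, the topoisomerase of dividing cells, had 1084 and 1101 CPM without and 1232 and 1201 CPM with the weight (0.15 ± 0.05, adjusted p = 0.044). ASPM, a spindle pole protein, rose by 0.16, and CDC20, an activator of the anaphase-promoting complex, fell by 0.20. All 3 calls were lost without either uncompressed library (adjusted p from 0.088 to 0.38), and those of CDC20 and ASPM also without weight replicate 2 (0.079 and 0.10). None of the 3 was called with the spread of all 14 libraries. CDK1 was not called (0.07 ± 0.05, adjusted p = 0.35).

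Of 35 DNA replication genes, none rose and 9 fell, with a median of -0.12. Over all genes tested 10.3% rose and 7.59% fell. MCM2, a subunit of the replicative helicase, had 230 and 223 against 192 and 192 CPM (-0.24 ± 0.05, adjusted p = 0.0036), and GINS2 fell by 0.34. The 9 became 1, 2 and 3 without uncompressed replicate 1, uncompressed replicate 2 and weight replicate 2. MCM2 lost its call without uncompressed replicate 1 (adjusted p = 0.067) and GINS2 without uncompressed replicate 2 (0.19). CDKN1A, the cyclin-dependent kinase inhibitor p21, stayed low but rose, from 0.970 and 1.15 to 4.01 and 2.66 CPM (1.65 ± 0.28, adjusted p = 0.00094), while the related CDKN1C fell by 0.44. The CDKN1A call was lost under 1 of 15 alternative settings. Of 25 genes of ribosome biogenesis none rose and 8 fell, a median of -0.15, whereas of 45 cytosolic ribosomal protein genes 11 rose and none fell, a median of 0.12. The counts were 2, 1, 12 and 2 for biogenesis and 2, 1, 7 and 20 for ribosomal proteins without uncompressed replicates 1 and 2 and weight replicates 1 and 2. With the spread of all 14 libraries none of the changes in these 3 lists was called. None of the 13 mitochondrially encoded mRNAs was called with all 4 libraries, against 2 rises without uncompressed replicate 1 and 1 fall without weight replicate 1.

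Liver products moved both ways. Of 26 hepatocyte transport and metabolic genes, 8 rose and 8 fell (10.3% and 7.59% over all genes tested), with a median of 0.03. AHSG (fetuin-A) had 1487 and 1521 CPM without and 2515 and 2722 CPM with the weight (0.80 ± 0.05, adjusted p = 3.68e-07). Among 16 alternative settings AHSG lost its call in 1, and AFP, named below, in 2. APOC3 rose by 1.32, ARG1 (arginase) by 1.41, and TF (transferrin) by 0.88. CPS1, the first enzyme of the urea cycle, had 64.5 and 70.9 against 42.0 and 41.1 CPM (-0.70 ± 0.07, adjusted p = 7.01e-06). AFP, the fetal counterpart of albumin, had 707 and 698 against 457 and 553 CPM (-0.48 ± 0.08, adjusted p = 0.0039), while ALB was not called (0.00 ± 0.05, adjusted p = 0.97). Both counts were 5 without uncompressed replicate 1, and 3 rises and 2 falls were called with the spread of all 14 libraries.

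Of 26 coagulation, complement and acute phase genes, 9 rose and 10 fell (10.3% and 7.59% over all genes tested), with a median of -0.01. The fibrinogen chains FGB and FGG fell by 0.63 and 0.55, and the heme carrier HPX had 148 and 136 against 87.1 and 80.8 CPM (-0.76 ± 0.06, adjusted p = 1.72e-06). HP, the haemoglobin carrier haptoglobin, fell by 1.43 from 3.03 and 3.35 CPM. F2 (prothrombin) rose by 0.61. The 9 rises became 4 and 5 without uncompressed replicates 1 and 2, and 1 with the spread of all 14 libraries, where 4 falls were called. CP, the copper oxidase ceruloplasmin, had 170 and 177 against 593 and 843 CPM (2.05 ± 0.24, adjusted p = 0.039), a call lost without either uncompressed library (adjusted p = 0.23 and 0.22).

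Genes read as signs of cell tension showed no common direction. Of 22 YAP and TEAD targets 3 rose and 6 fell (10.3% and 7.59% over all genes tested), with a median of -0.07. MYOF, a membrane repair protein, had 3.65 and 3.15 CPM without and 7.84 and 10.5 CPM with the weight (1.42 ± 0.18, adjusted p = 8.84e-05). Of 39 actin and SRF genes 11 rose and 4 fell, a median of 0.07, with TAGLN up by 1.27 and MSN (moesin) by 0.44. The 11 became 6 without uncompressed replicate 1, and the 4 became 2 without uncompressed replicate 2 or weight replicate 2. With the spread of all 14 libraries 1 YAP and TEAD rise and 1 actin rise were called, and no fall. EHD2, which stabilises caveolae, rose by 0.86, and S100A11 by 1.52. SGK1, a kinase induced by osmotic and hormonal signals, had 140 and 145 against 100 and 94.7 CPM (-0.55 ± 0.05, adjusted p = 9.67e-06). The SGK1 call was lost under 2 of 16 alternative settings.

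Of 11 mesenchymal genes 5 rose and 2 fell (10.3% and 7.59% over all genes tested), with a median of 0.32. The fallen pair were CDH2 (N-cadherin), from 223 and 233 to 142 and 134 CPM (-0.72 ± 0.05, adjusted p = 7.39e-07), and VIM (vimentin; -0.48). Risen members were TGM2, a protein crosslinking enzyme (1.16), and LOX, lysyl oxidase (1.55). Of 23 epithelial genes 6 rose and 7 fell, a median of -0.01, with KRT19 at -0.52 and CLDN1 at -0.41. The mesenchymal rises were 2, 3 and 3 without uncompressed replicates 1 and 2 and weight replicate 1, and the epithelial falls 4 without either uncompressed library. With the spread of all 14 libraries 1 mesenchymal rise, 1 mesenchymal fall and no epithelial change were called. Among matrix genes COL5A2 fell by 0.64, COL7A1 rose by 1.89, the integrin ITGA2 by 1.46 and the protease inhibitor SERPINE2 by 1.36. IGF2, a fetal growth factor, rose by 0.67, and IGFBP3 fell by 0.52.

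Of 29 pro-apoptotic genes 5 rose and 2 fell, a median of 0.00, and of 16 anti-apoptotic genes 5 rose and 2 fell, a median of 0.15. Over all genes tested 10.3% rose and 7.59% fell. BMF, a BH3-only protein, had 168 and 168 CPM without and 237 and 256 CPM with the weight (0.56 ± 0.05, adjusted p = 6.58e-06). The BMF call was lost under 2 of 16 alternative settings. The death receptor TNFRSF10B rose by 0.45 and its decoy TNFRSF10D by 0.91, and the caspase inhibitor XIAP by 0.46. The pro-apoptotic rises were 3 without either uncompressed library, and the anti-apoptotic rises 3 without weight replicate 2. Without either uncompressed library or weight replicate 2 the falls were 1 pro-apoptotic and 0 anti-apoptotic. With the spread of all 14 libraries 2 pro-apoptotic and 1 anti-apoptotic rises were called, and no fall.

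**Figure D3:**
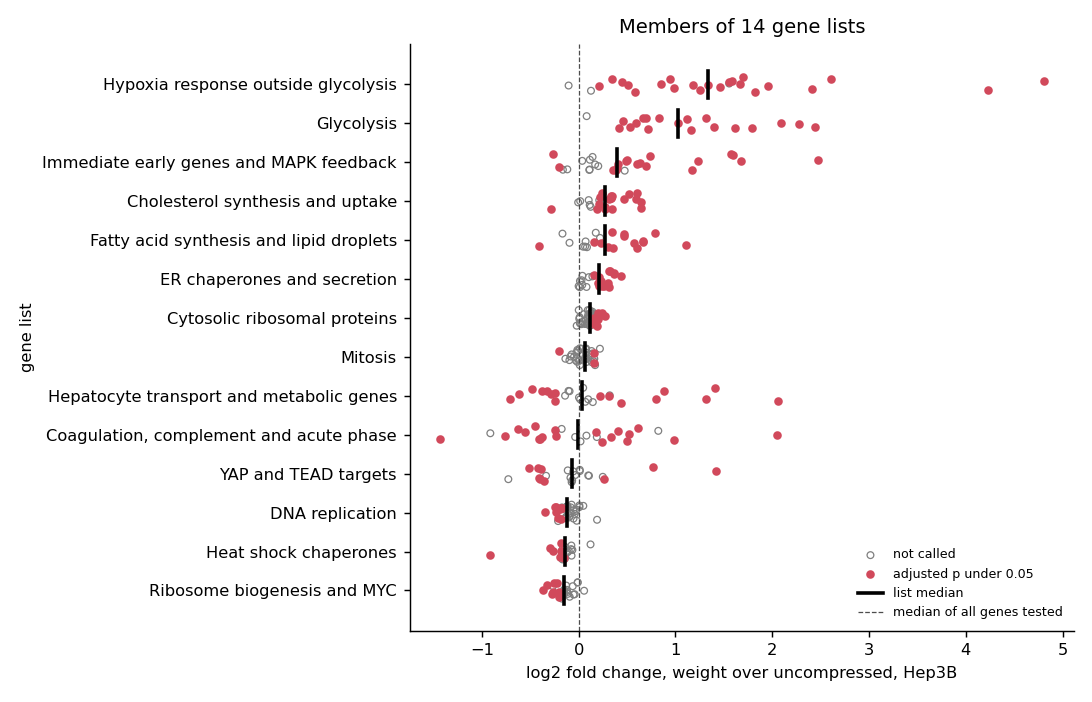
Log2 fold change of each tested member of 14 gene lists in Hep3B, weight over uncompressed. Filled points passed the test, open points did not, black bars are list medians (1.33 for hypoxia, 1.03 for glycolysis, -0.15 for ribosome biogenesis) and the dashed line is the median of all genes tested.

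The weight libraries differed in how far they moved. Of the 1446 risen genes, 1038 (71.8%) were higher in weight replicate 2 than in replicate 1, and 802 of 1061 fallen genes (75.6%) were lower in it, against 49.8% of uncalled genes that were higher. The median gap was small, 0.08 for risen and -0.07 for fallen genes on the log2 scale. Mitochondrial transcripts made up 2.70% and 2.00% of counts in the uncompressed and 3.03% and 1.99% in the weight libraries, so replicate 2 was the lower in both groups. What made the replicates differ was not tested.

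In HepG2, a hepatoblastoma line, the weight on transwells raised 24.8% and lowered 24.5% of tested genes. No library is shared between the lines. Over 8 libraries the weight effect differed between lines in 25.9% of 15114 genes, higher in Hep3B for 12.9% and lower for 13%. Of the genes that rose in Hep3B and were tested in HepG2, 52.0% also rose there and 15.8% fell, while 22.7% of those that rose in HepG2 also rose in Hep3B. Of those that fell in Hep3B, 47.2% also fell in HepG2, and 13.95% of those that fell in HepG2 also fell in Hep3B.

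The weight effect on glycolysis and cell division genes set the lines apart. Starting levels differed as well. LDHA had 3247 and 3194 CPM in uncompressed HepG2 against 591 and 587 CPM in uncompressed Hep3B. PFKFB4 had 105 and 109 against 9.23 and 8.35 CPM. PFKM went the other way, with 2.91 and 3.00 against 12.7 and 12.2 CPM. The part of the starting level in these differences was not tested. In HepG2 10 of 19 glycolysis genes rose and 2 fell, with a median of 0.14, and the effect was higher in Hep3B for 16 and lower for 1. SLC2A1 had 656 and 651 CPM without and 627 and 590.3 CPM with the weight in HepG2, far above its Hep3B level, a log2 fold change of -0.10 (difference 1.48, adjusted p = 1.61e-09). EPO had 15.2 and 12.9 against 16.5 and 16.8 CPM there, all above both Hep3B groups, a log2 fold change of 0.24 (difference 3.96, adjusted p = 6.63e-08). Hypoxia targets rose in both lines: 22 of the 24 tested in HepG2 rose, with a median of 0.58, and the effect was higher in Hep3B for 13 of 25 and lower for 3. NDRG1 and VEGFA did not differ detectably between the lines (1.33 and 1.32, adjusted p of the difference 0.99, and 1.59 and 1.45, 0.81).

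All 35 DNA replication genes and 35 of 36 mitosis genes fell in HepG2, with medians of -0.76 and -0.92, and the difference was called for 32 and 35 of them, each higher in Hep3B. TOP2A fell by 1.05 in HepG2 (difference 1.18, adjusted p = 2.28e-09). Cholesterol genes also separated the lines: 19 of 24 fell in HepG2, with a median of -0.41, and 20 of 25 effects were higher in Hep3B, FDPS among them (difference 1.25, adjusted p = 5.97e-10). ER genes fell in HepG2 for 15 of 24, and 22 of 24 effects were higher in Hep3B. In the other direction, 12 of 22 YAP and TEAD targets had a lower effect in Hep3B and 1 a higher one, and 13 of 20 rose in HepG2.

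**Figure D4:**
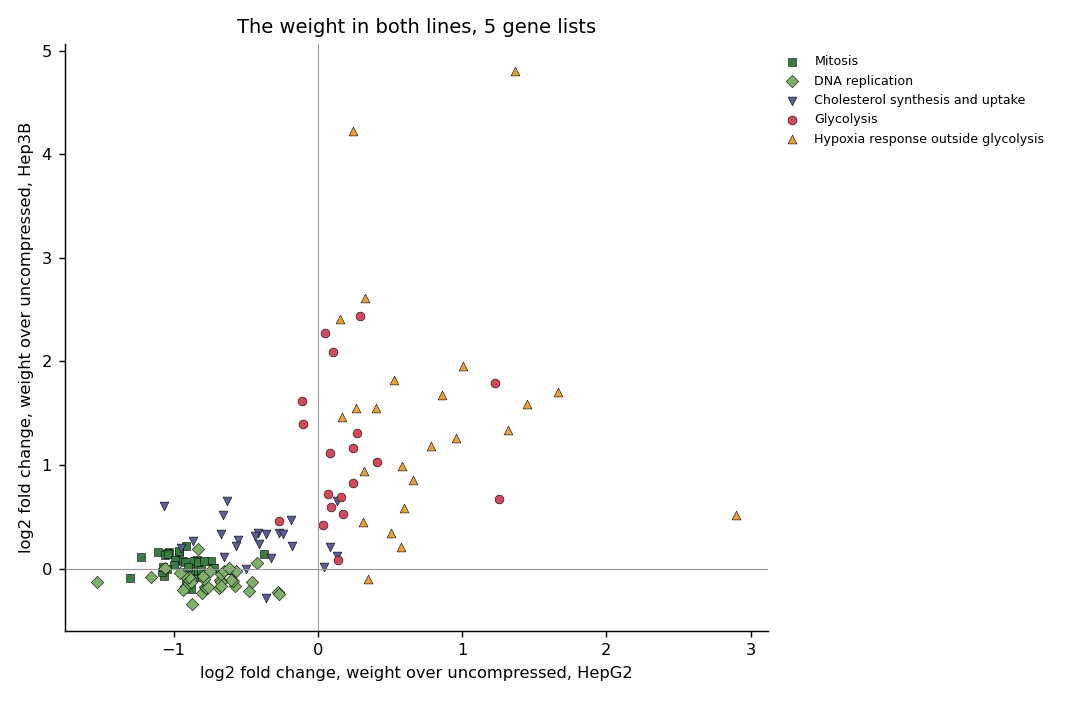
Log2 fold change under the weight in Hep3B (vertical) against HepG2 (horizontal) for genes of 5 lists tested in both lines. Mitosis and DNA replication genes lie near 0 in Hep3B and to the left in HepG2, where their medians are -0.92 and -0.76, and glycolysis genes lie high in Hep3B with a HepG2 median of 0.14.

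Hep3B in 3% PEG, a crowding agent that draws water from cells, was set against the same uncompressed libraries, so only the direct contrast of weight and PEG is a test. It was called for 63% of 14441 genes. Median log2 fold changes against the uncompressed libraries were 1.03 with the weight and -0.29 with PEG for glycolysis, 1.33 and -0.20 for hypoxia, 0.27 and -0.96 for cholesterol, and 0.03 and 1.87 for the ATF4 list. CA9 was 4.81 with the weight and -2.21 with PEG (adjusted p of the contrast 0.00011), and ANGPTL8 2.24 and -1.67 (4.96e-21). HAL stood at 2.06 and -2.57 (2.90e-20), and FDPS at 0.65 and -0.96 (5.73e-18). IGFBP1 rose under both, by 4.63 and 6.32 (adjusted p of the contrast 0.0034). DDIT4 was at 2.41 and 2.18, a contrast that was not called (adjusted p = 0.40). ATP2B2, a calcium pump, had 0.81 with the weight and -4.19 with PEG (4.96e-21), and SPINK1, a trypsin inhibitor, -0.37 and 5.15 (4.96e-21).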

How the data were processed

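The deposited table holds raw counts per gene, which the authors made from paired reads of 100 bases; STAR, DESeq2 and GRCh38 (hg38) appear in the submitters' processing notes, and the counting tool is not given in the sources used here. Libraries were grouped by their titles. Counts were fitted in edgeR 4.0.16 (R 4.3.3) with TMM scaling, robust glmQLFit and glmQLFTest on the 4 libraries, with 2 residual degrees of freedom. Library totals were 22079840 to 25823821 counts. CPM are counts scaled to a common TMM-adjusted library size. SE is the absolute log2 fold change divided by the square root of the test's F statistic. Calls rest on the adjusted p, which can be weaker than SE alone would show, as for CA9 (4.81 ± 0.45, adjusted p = 0.016). The weight effect in both lines (8 libraries) and weight against PEG (6 libraries) were fitted alike. Gene lists (42) and members were chosen with earlier results of these data known. Named genes were the 12 largest rises and falls (mean of at least 5 CPM), the 12 smallest p (at least 50 CPM), 4 members of each list, 5 per direction of the other contrasts, and genes that check the line labels, RB1, AFP and ALB among them. 30 others were named after their values were seen, and some picked genes are not reported. Alternatives included RLE, other filters, other spreads, DESeq2 1.42.0 and leaving out each library. On simulated counts, 2.38% to 6.7% of calls were false where the spread followed its trend with level. Where each gene kept its own estimated spread, 6.77% to 25% were false, with 25% at a 1.2-fold change. More calls than the threshold states may therefore be false. Of 1.2-fold changes, 20.5% and 16.5% were recovered under these 2 spreads, so most changes of that size were missed. Promoter sequences came from RefSeq (GRCh38.p14).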

Additional observations from a re-analysis of the deposited data

Results flagged for a closer look

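The effect of the weight differed between Hep3B and HepG2, by the test of that difference in edgeR over 8 libraries, for 3916 genes. Among the genes named above it differed for 98, and each value here is the log2 fold change in Hep3B minus that in HepG2. The weight raised these genes more, or lowered them less, in Hep3B: IGFBP1 (4.71), EPO (3.96), ANGPTL2 (3.95), CA9 (3.42), HAL (2.63), ANKRD37 (2.26), DDIT4 (2.23), ALDOC (2.20), PFKFB4 (2.13), EGR1 (1.99), PDK1 (1.97) and IER3 (1.96). The difference was next for ANGPTL8 (1.83), SPRY4 (1.76), FABP1 (1.72), LDHA (1.71), SLC2A1 (1.48), ARG1 (1.46), DUSP6 (1.33), FOS (1.29), P4HA1 (1.27), BNIP3L (1.27), GDF15 (1.27) and BNIP3 (1.27). It was smaller for APOC3 (1.26), FDPS (1.25), TOP2A (1.18), ASPM (1.17), SGK1 (1.17), LOX (1.13), ELOVL6 (1.12), SPRY1 (1.04), SLC16A3 (1.02), ALDOA (1.01), HMGCS1 (0.98) and RB1 (0.98). Then came TRIB3 (0.95), ADM (0.93), HK2 (0.90), CDK1 (0.90), AK4 (0.89), ATP2B2 (0.85), ITGA2 (0.83), AKR1D1 (0.82), SCD (0.81), BHLHE40 (0.79), FASN (0.77) and PLIN4 (0.75). Below these stood PLIN2 (0.74), SSR1 (0.73), SQLE (0.67), CDC20 (0.65), JUNB (0.65), STARD4 (0.63), GBE1 (0.62), HERPUD1 (0.57), GAPDH (0.56), MCM2 (0.54), TNFRSF10D (0.53) and GINS2 (0.50). The list goes on with ERN1 (0.44), HSPA5 (0.41), ERO1A (0.39), XIAP (0.38), MXI1 (0.38), AHSG (0.36), HNF4A (0.35), TNFRSF10B (0.30), ALB (0.29) and EDEM1 (0.27).

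The effect was lower in Hep3B for UCA1 (-4.92), HSPB8 (-3.86), IGFBP3 (-3.81), MSN (-3.74), HABP2 (-3.50), HP (-2.69), MYOF (-2.52), EGLN3 (-2.40), KRT19 (-2.30), EHD2 (-1.61), SPINK1 (-1.49) and SLC43A3 (-1.47). It was also lower for TENT5C (-1.20), CDH2 (-1.03), S100A11 (-1.02), SERPINE2 (-0.93), FGB (-0.73), TBX2 (-0.64), BMF (-0.58), HIF1A (-0.47), TGM2 (-0.43), CPS1 (-0.42), EPAS1 (-0.38) and CLDN1 (-0.36). So it was for CPT1A (-0.34), FGG (-0.34), DNAJA1 (-0.33) and PHGDH (-0.26). Several of these differences rest on low levels in uncompressed HepG2. UCA1 had 0.746 and 0.623 CPM there, HSPB8 0.393 and 0.220, MSN 0.236 and 0.256, and SLC43A3 0.667 and 0.550. HABP2 was too low to test in HepG2 alone. In the other direction, IGFBP1, EPO and ANGPTL2 stood below 1 CPM in uncompressed Hep3B. With 2 libraries in each group no single library was tested as standing apart.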

How the results depend on the processing

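The number of genes changed by the weight in Hep3B (2507) was 223 (186 up, 37 down) with the spread taken from all 14 libraries, 1516 in DESeq2 (546 down) and 276 (235 up, 41 down) when tested against a log2 fold change of 0.5. Without a scaling factor 1770 fell. Leaving out each library in turn gave 1181 to 2863 genes, with 753 to 1460 up and 396 to 1403 down. With all 14 libraries the difference between lines was called for 407 genes (176 higher, 231 lower in Hep3B) and weight against PEG for 4402 (2254 and 2148). For the weight in Hep3B, RLE scaling, both filters and the spreads of 6 or 10 libraries kept the total, up and down counts within 1.5 times; for the other contrasts RLE scaling, the stricter filter, DESeq2 and the block did. Of the 133 genes named, 66 lost their call with all 14 libraries. The labels do not pair the libraries: deviations of same-numbered replicates correlated at -0.13 across genes, and a replicate block called 2859 genes (1631 up, 1228 down). Under it 3 mitochondrially encoded mRNAs rose and 6 fell. ALB, which was not called, turned to -0.037 without a scaling factor, -0.016 without the low-count filter and -0.018 with all 14 libraries, and ran from -0.014 to 0.022 with a library left out. CA12 ran from -0.071 to 0.299 with a library left out. With 2 libraries a group, small changes of genes near 1 CPM were not detectable at this depth.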
